A study of Mus musculus with 2 samples.

Results

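Gria4-high astroglia were the 59 cell barcodes in which Gria4, the gene of an AMPA-type glutamate receptor subunit, reached 3000 CPM, the unique molecular identifiers (UMIs) of a gene scaled to 1000000 UMIs of the barcode. They were taken from 17474 deposited barcodes, of which 12036 were kept for having 500 or more genes detected and no more than 10% of UMIs from mitochondrial genes. A member also needed 2 or more UMIs of Slc1a3, the glial glutamate transporter, and at most 1 of the genes Pdgfra, Cspg4, Snap25 and Syt1, which mark oligodendrocyte precursors and neurons. The mutant library gave 26 members among 6294 kept barcodes, and the control library gave 33 among 5742. They were set against 1165 other astroglial barcodes, 367 mutant and 798 control, which had at least 4 of the 8 astrocyte genes Slc1a2, Slc1a3, Aqp4, Gja1, Slc4a4, Gpc5, Atp1b2 and Ntsr2 at 2 or more UMIs. Of the members, 26 of 26 mutant and 32 of 33 control barcodes met that condition as well.

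The mutant library came from adult Mrc1Cre:Csf1rfl/fl mice and the control library from adult Csf1rfl/fl mice. Both genotypes carried the floxed alleles of Csf1r, the receptor that maintains macrophages and microglia, and the mutant also carried Cre recombinase under the Mrc1 locus, which is active in cells that make the mannose receptor, such as border-associated macrophages. Cells of the whole brain were sorted by surface markers for vessels, fibroblasts, macrophages, microglia and astrocytes, the last through ACSA-2, an epitope of the astrocyte protein encoded by Atp1b2. There was 1 library per genotype, and the number of animals behind each is not given in the sources used here, so every difference describes these libraries and no test between genotypes exists. Csf1r stood at 981 CPM (95% Poisson interval 974 to 989) over the kept barcodes of the mutant library and 1345 CPM (1335 to 1354) in the control library. Barcodes with the markers of border-associated macrophages made up 1.86% and 5.40% of kept barcodes. In Gria4-high astroglia Csf1r had 24 and 11 UMIs in all.

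Astroglia differ by brain region. Bergmann glia, the radial astroglia of the cerebellar cortex, wrap the synapses of Purkinje neurons, and they are known for AMPA receptors built of the Gria1 and Gria4 subunits without the Gria2 subunit, a make-up that lets calcium pass. Their fibres take up glutamate through Slc1a3, and Sonic hedgehog from Purkinje neurons acts on them.

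Genes that made the selection are described first, and nothing is tested on them. Gria4 (chromosome 9, 4417896 to 4796234, GRCm38) ran from 3008 CPM over a median of 9541 CPM to 18823 CPM in mutant members, and from 3008 over 5379 to 14306 CPM in control members. These levels came from 19 to 277 UMIs per mutant member and 21 to 165 UMIs per control member. The highest barcodes just outside the limit held 2873 CPM in the mutant and 2934 CPM in the control library. In the mutant library 5 barcodes that met the rest of the rule lay between 2000 and 3000 CPM and 2 between 3000 and 4000 CPM, against 16 and 11 in the control library. The limit thus cut through a sparse range of Gria4 levels in the mutant and a filled one in the control library. Slc1a3 had medians of 8060 CPM in mutant and 6517 CPM in control members, against 679 and 1031 CPM in the other astroglia of the same libraries. The further genes Kcnj3, Tnc and Mybpc1 had been named as markers of these cells from the same data. Kcnj3, a G-protein-gated potassium channel subunit, had a UMI in 23 of 26 mutant and 28 of 33 control members, Tnc (tenascin C) in 23 and 24, and Mybpc1, a myosin-binding protein of slow muscle, in 14 and 11. Barcodes with microglia markers, which should lack these genes, had a UMI of Kcnj3 in 0.620% of mutant and 0.770% of control barcodes, and of Tnc in 0.0496% and 0.0513%. Kcnj3 and Tnc thus marked most members, whereas Mybpc1 reached 3105 CPM in a mutant and 5405 CPM in a control member but was not detected in most control members.

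Depth was close to that of other astroglia, and the mitochondrial share was not. Members held 238499 UMIs in the mutant and 360530 UMIs in the control library, with medians of 8002.5 and 10089 UMIs per barcode, against 9680 and 9542 in the other astroglia. The mitochondrial share of the UMIs had a median of 1.11% in mutant and 2.64% in control members, against 6.53% and 7.29% in other astroglia. In 23 of 26 mutant and 17 of 33 control members this share was at most 3%, against 23 of 367 and 93 of 798 other astroglia. Markers of another cell type, counted when at least 50% of that type's list had 2 or more UMIs, stood in 2 mutant and 5 control members, against 145 of 367 and 214 of 798 other astroglia. No member had a Scrublet doublet score above 0.2. In the control library 1 member nonetheless held 120672 CPM of Ttr, a choroid plexus marker, against a median of 2311 CPM in control members. It carried 85.7% of the Ttr UMIs of control members. Summed over members, Ttr stood at 2294 CPM in the mutant and 12654 CPM in the control library. The libraries shared 17 barcode sequences, and 0 of these were members. Members were therefore also set against 3 narrower groups of other astroglia: those without markers of another type, those with at most 3% mitochondrial UMIs, and those with at least 6 of the 8 astrocyte genes. The first and second of these were chosen after the data were seen. Among the 507 measured list genes, 353 were not called against all other astroglia, and of these 14 gained a call as higher and 32 as lower in at least 1 narrower comparison, while 0 called genes were called in the other direction. List medians were less stable, since 18 of 88 changed sign without markers of another type and 35 of 80 at low mitochondrial share. At low mitochondrial share 5826 genes could be measured, beside 12712 against all other astroglia, so those medians can rest on fewer genes.

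Most members also clustered together on genes that the rule did not use. Astroglial barcodes of both libraries were clustered after removal of the genes used by the rule and of Kcnj3, Tnc and Mybpc1, and 53 of the 59 members (25 mutant, 28 control) fell into 1 cluster of 58 barcodes. The other 5 barcodes of that cluster were control cells with Gria4 between 1792 and 2934 CPM, below the limit. The cluster was led by Gdf10, Abi3bp, Frrs1l, Spock3 and Septin4. Of the remaining members, 1 mutant barcode lay in a cluster led by macrophage genes such as Cd74 and Mrc1, and 5 control barcodes lay in 5 other clusters.

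**Figure D1:**
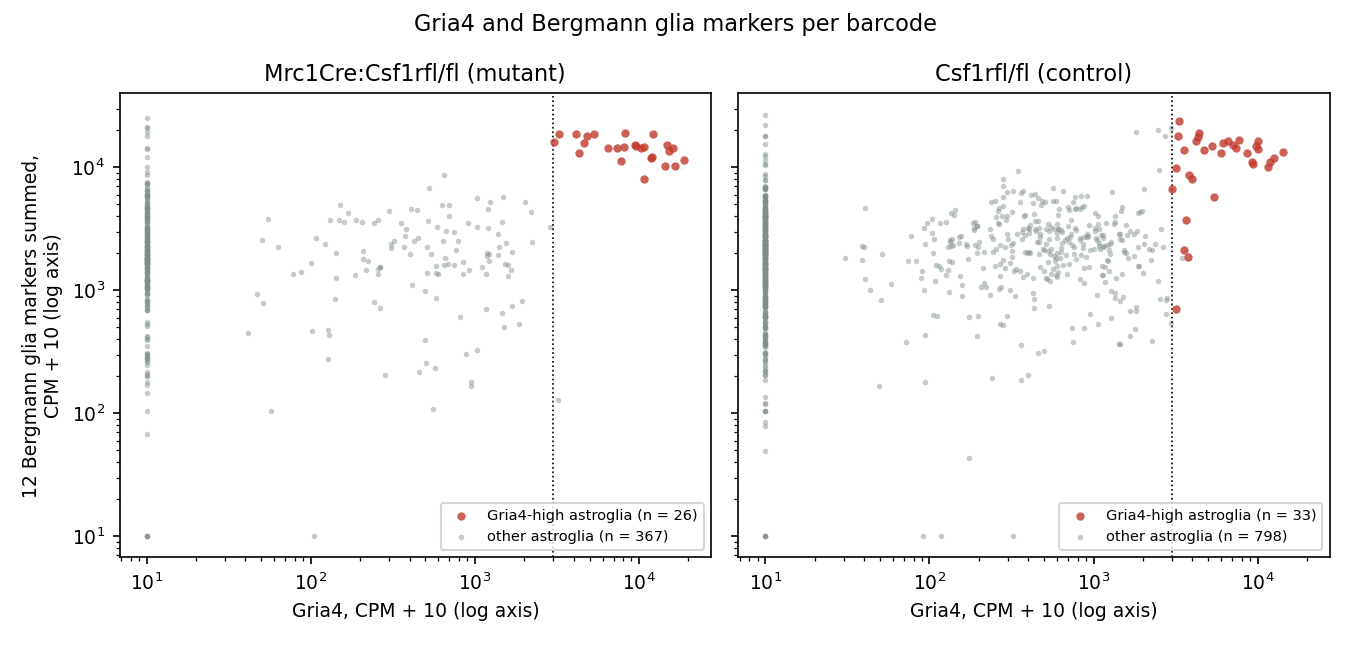
Gria4 CPM (x axis, log scale, 10 added) against the summed CPM of 12 Bergmann glia markers (y axis, log scale, 10 added) in each astroglial barcode, with the mutant library on the left, members in red, other astroglia in grey and the limit of 3000 CPM as a dotted line. All 26 mutant members have sums of 7965 CPM or more, while control members just above the limit spread down to 694 CPM.

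Of a list of 12 Bergmann glia markers, Gria4-high astroglia were higher in 9 and lower in 0. A gene was called higher or lower when its CPM, from UMIs summed over barcodes, differed at least 2-fold from that of other astroglia with a 95% Poisson interval that excluded 1, in the same direction in each library. By that rule 341 of 12712 measured genes (2.68%) were higher and 700 (5.51%) were lower. The median log2 difference of the list was 3.59 in the mutant and 2.70 in the control library, beside -0.22 and -0.20 over all measured genes. Intervals reflect counting error alone and leave out the spread between cells or animals.

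Gdf10, a secreted factor of the transforming growth factor beta family, had a UMI in 24 of 26 mutant members, with a median of 616 CPM and a highest value of 1794 CPM. It had a UMI in 27 of 33 control members, with a median of 840 CPM and a highest value of 2940 CPM. In other astroglia the median was 0 in both libraries, and 9.54% of mutant and 7.77% of control barcodes had a UMI. The summed levels differed 37.9-fold (29.4 to 49.0) in the mutant library, at 805 CPM in members and 21.3 CPM in other astroglia. In the control library they differed 49.7-fold (41.5 to 59.8), at 938 and 18.8 CPM. Microglia, which should lack Gdf10, showed a UMI in 1.27% of 4030 mutant and 0.822% of 3895 control barcodes at median depths of 8295 and 8326 UMIs, so the shares in members lay above the level seen in cells that should lack it.

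Gria1, the partner subunit of Gria4 in Bergmann glia, was detected in 26 of 26 mutant members, at 2062 CPM or more with a median of 5755 CPM. In the control it was detected in 32 of 33 members, with a median of 3302 CPM and a highest value of 8575 CPM. The medians in other astroglia were 0 in the mutant and 189 CPM in the control library, so most members lay above most other astroglia, although the highest other astroglia reached 4864 and 6045 CPM. Septin4, a cytoskeletal septin, stood at 902 CPM or more in every mutant member, with a median of 1854 CPM, and ranged from 0 over 1462 to 4080 CPM in control members. Its summed ratio to other astroglia was 34.4 in the mutant and 14.2 in the control library. Control oligodendrocytes held more Septin4, at 2160 CPM, than control members did, at 1448 CPM. In the mutant library the highest other class, endothelial cells, held 115 CPM, against 2038 CPM in members. Timp4, an inhibitor of metalloproteinases, averaged 1581 and 1559 CPM in mutant and control members, against 130 and 255 CPM in other astroglia. A2m, a broad protease inhibitor, stood at 746 and 682 CPM, against 24.0 and 35.8 CPM. Hopx, a homeodomain cofactor also found in glial progenitors, stood at 1413 and 1118 CPM, against 117 and 119 CPM. Dao, the D-amino acid oxidase known from cerebellar astroglia, stood at 314 and 275 CPM, against 22.8 and 36.9 CPM. Dao was also among the leading genes of a cluster of 54 barcodes that held 1 member, as were Vcan and Pax3, described below. The other astroglia of that cluster, 17 mutant and 36 control, had a median of 570 CPM of Gria4.

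The remaining Bergmann glia markers separated the groups less. Fabp7, a fatty acid carrier of radial and other astroglia, was called higher at ratios of 2.01 and 2.69, and Lgr6 at 2.14 and 2.10. Both lost the call against other astroglia without markers of another type and against those with at most 3% mitochondrial UMIs. The mutant ratios were 0.963 and 0.680 for Fabp7 and 1.04 and 0.815 for Lgr6, and no control ratio turned below 1. These mutant groups held more of Npy and Frzb, markers of olfactory ensheathing glia, another glial type. Npy stood at 892 and 1076 CPM and Frzb at 98.4 and 205 CPM in the mutant groups. In the control groups Npy stood at 204 and 17.2 CPM and Frzb at 19.1 and 0 CPM. Whether barcodes with these markers set the mutant ratios was not tested. Itih3 (1.30 and 1.33), Kcnj10 (1.49 and 1.10) and Vim (1.14 and 4.31) did not meet the rule in both libraries. Vim, the intermediate filament vimentin, was called higher in these narrower comparisons, at ratios of 5.94 and 15.9 without markers of another type and of 6.01 and 13.8 at low mitochondrial share, so that 8 of 12 markers were called higher in each. Gria1 alone made up 39.8% of the marker sum in mutant members and 31.9% in control members, and Septin4 13.9% and 11.6%.

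Counted per barcode, at least 6 of the 12 markers had 2 or more UMIs in 23 of 26 mutant and 26 of 33 control members, against 38 of 367 and 131 of 798 other astroglia. The marker sum ran from 7965 over 14430 to 19008 CPM in mutant members, and from 694 over 13352 to 23641 CPM in control members. The medians in other astroglia were 1880 and 2080 CPM. All mutant members and 28 of 33 control members lay above the 95th percentile of other astroglia. High sums in other astroglia mostly had another make-up. Of the 5 mutant and 9 control other astroglia at or above the members' median sum, 5 and 5 had no Gria4 UMI, and in these Fabp7 gave 94.8% and 96.7% of the sum with no UMI of Gdf10, Hopx, Timp4 or Gria1.

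The general astrocyte genes did not separate the groups in the same way. Of 12 further pan-astrocyte markers, 2 were called higher and 0 lower, with median log2 differences of 0.54 and 0.63. These were S100b, a calcium-binding protein, at 847 and 713 CPM in members against 328 and 234 CPM in other astroglia, and Gpr37l1, a glial receptor, at 2600 and 2527 CPM against 720 and 1061 CPM. Gpr37l1 lost the call against other astroglia without markers of another type. In that comparison and in the one with 6 astrocyte genes, 2 of the 12 were called lower, Glul and Gjb6, a gap junction gene. Against low-mitochondrial other astroglia 4 of the 12 were higher, with Aldh1l1 and Aldoc added. Among the genes that chose the other astroglia, given as a description only, Slc1a2, the main forebrain glutamate transporter, stood at 2302 and 3475 CPM in members and at 2404 and 4683 CPM in other astroglia. Aqp4, the water channel of astrocyte end-feet, stood at 1061 and 1262 CPM, against 855 and 991 CPM. Gpc5, a glypican, was the exception, at 79.7 CPM in mutant and 2627 CPM in control members, against 3564 and 6537 CPM in other astroglia.

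**Figure D2:**
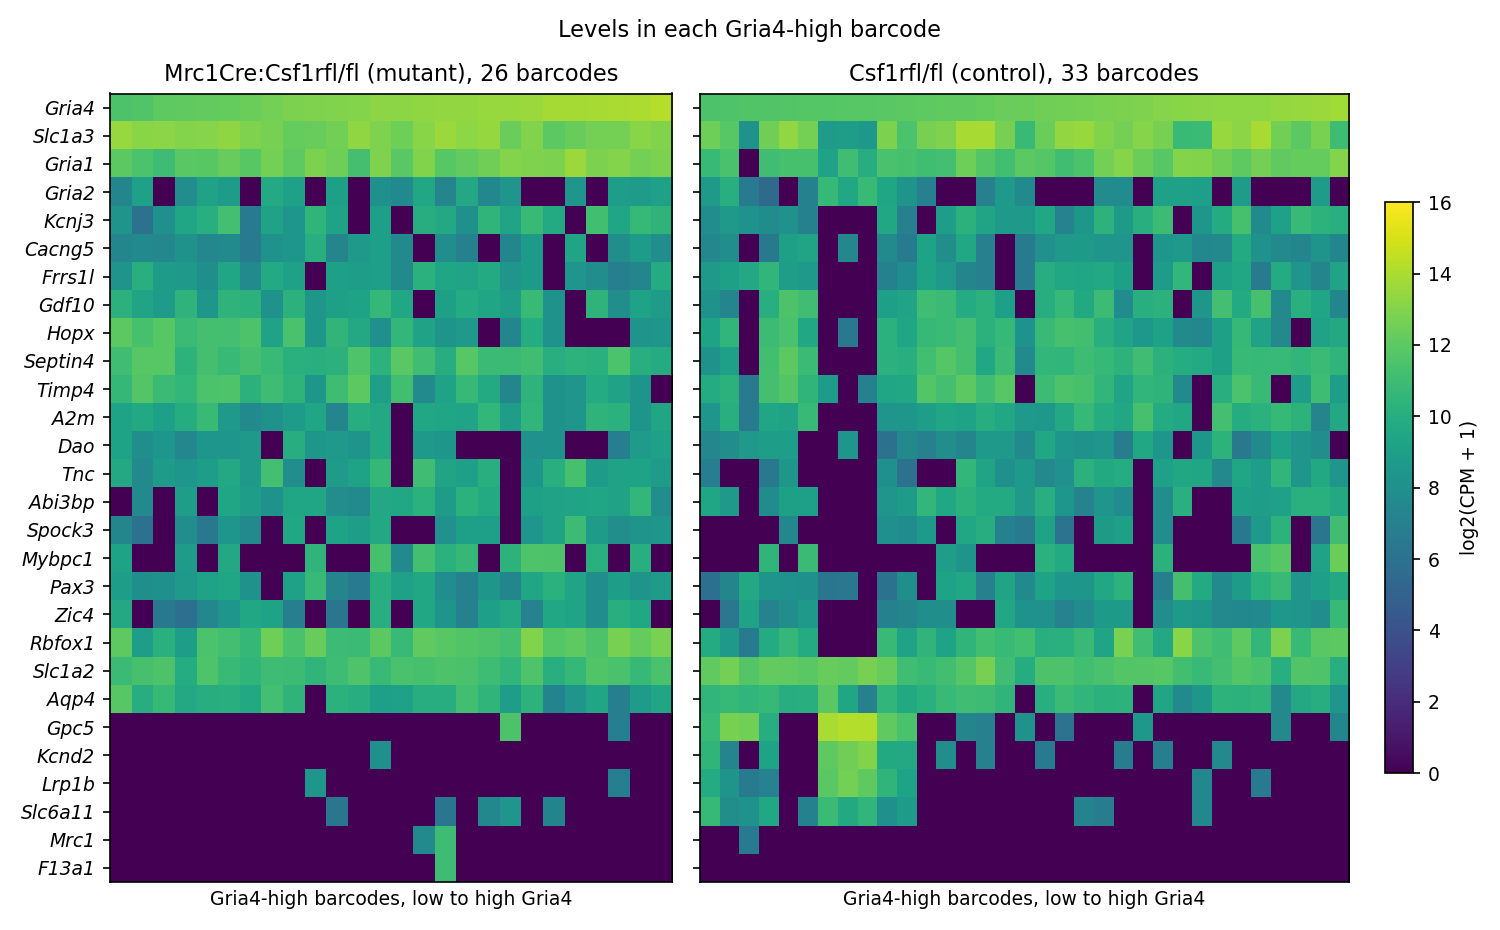
Levels of the genes named on the y axis, as log2 of CPM plus 1, in each of the 26 mutant members (left panel) and 33 control members (right panel), ordered within a library from low to high Gria4. The lowest control members by Gria4 carry Gpc5 and Kcnd2, which nearly all mutant members lack.

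Among the 20 genes named by rank, Wif1, an extracellular Wnt inhibitor, had 41.9 CPM in mutant members and 0 UMIs in mutant other astroglia. That was 61.8-fold above a floor of 3 UMIs summed over the group, a fold that leaves out counting error. In the control library Wif1 stood at 88.8 CPM, against 1.52 CPM, a ratio of 58.4 (30.7 to 116). Spock3, a secreted proteoglycan, stood at 314 CPM in mutant members with 0 UMIs in other astroglia, 463-fold above the same floor. In the control library it stood at 216 against 6.18 CPM. Other secreted or matrix genes were in the same group. Abi3bp, a matrix protein, differed 70.4-fold (46.8 to 109) in the mutant and 34.5-fold (27.4 to 43.4) in the control library, and Cthrc1, a secreted collagen-repeat protein, 27.0-fold and 18.6-fold. Tnc was also in this group, at 595 CPM in mutant and 355 CPM in control members, against 8.59 and 15.6 CPM.

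Signalling and metabolic genes completed the ranked set. Prkg1, the kinase activated by cyclic GMP, stood at 2302 and 1478 CPM in members, against 100 and 64.8 CPM, with ratios of 22.9 (20.2 to 26.0) and 22.8 (20.3 to 25.7). Rbfox1, a splicing factor better known from neurons, stood at 3187 and 1698 CPM, against 119 and 113 CPM, but 37.2% of mutant and 36.5% of control microglia also had a UMI of it. Pparg, a nuclear receptor for fatty acids, had 41.9 and 74.9 CPM, against 0.452 and 1.52 CPM, with intervals of 19.8 to 870 and 25.3 to 99.6 around ratios of 92.7 and 49.3. Tdo2, which opens the tryptophan ring, had 50.3 and 63.8 CPM, against 0.679 and 2.33 CPM, ratios of 74.2 (20.01 to 409) and 27.4 (14.7 to 51.1). Cd70, a ligand of the tumour necrosis factor family, had 105 and 94.3 CPM, against 0.452 and 2.23 CPM, ratios of 232 (57.8 to 2019) and 42.3 (24.0 to 75.9). Greb1l, Gjc3, which encodes a connexin, and Ust, a sulfotransferase of glycosaminoglycans, were the others, with ratios between 14.9 and 53.9. Microglia also had a UMI of Ust in 36.1% of mutant and 32.4% of control barcodes, and of Prkg1 in 4.24% and 22.3%. Wif1, Pparg and Tdo2 lost the call in the mutant library when every barcode was thinned to 2000 UMIs, where Tdo2 had 0 UMIs in members, and the 20 genes kept it in both libraries in each other setting that measured them. Of all 341 higher genes, 257 were also above their level in each other cell class taken by its marker list in both libraries, namely choroid plexus epithelium, microglia, endothelial cells, fibroblasts and, in the control library, oligodendrocytes.

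**Figure D3:**
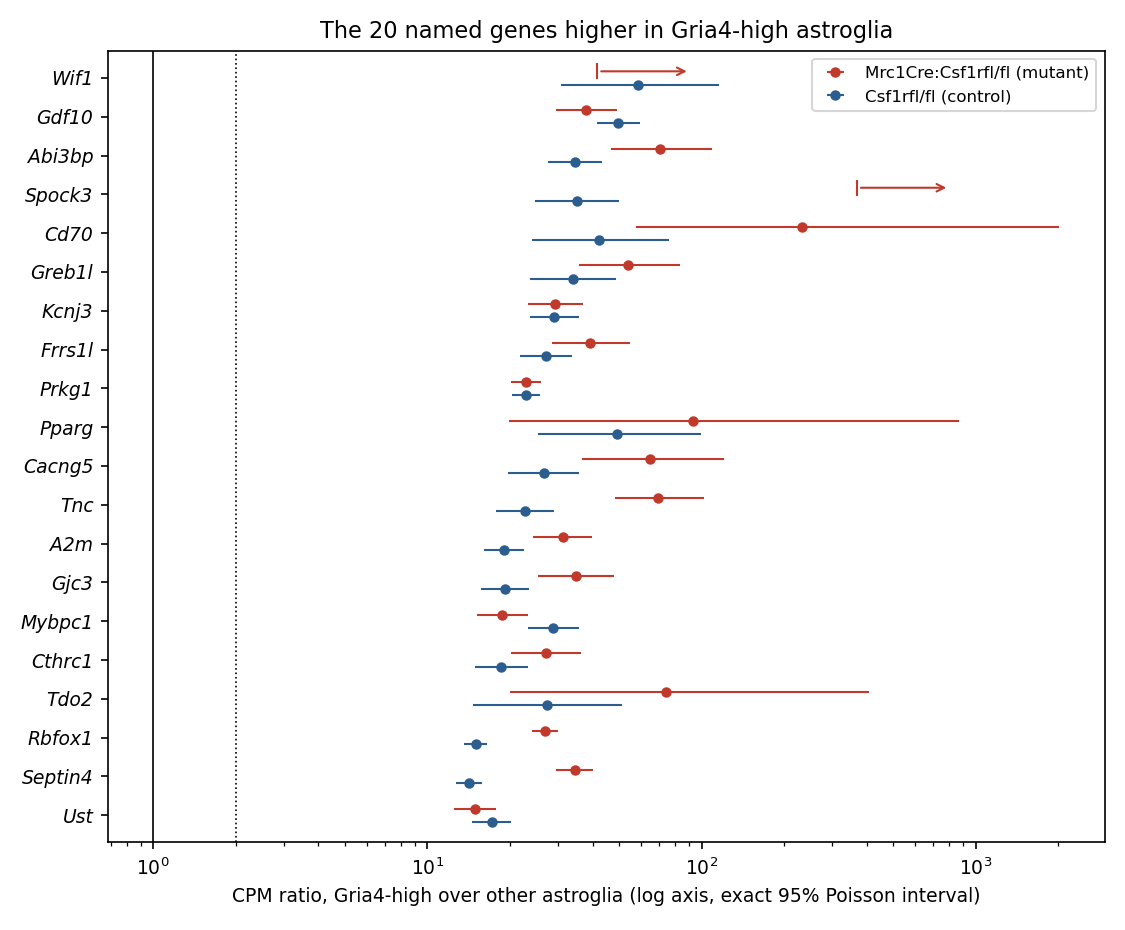
Ratio of summed CPM in Gria4-high astroglia to that in other astroglia (x axis, log scale) for the 20 highest-ranked genes, with 95% Poisson intervals for counting error; mutant points stand above control points, a tick with an arrow marks a lower bound where other astroglia had 0 UMIs (Wif1 and Spock3, mutant), and the dotted line marks a 2-fold difference. All points lie above 10-fold in both libraries.

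Glutamate receptor genes differed from other astroglia subunit by subunit. Of 16 measured AMPA receptor subunits and partners other than Gria4, 5 were called higher and 2 lower, with median log2 differences of 0.66 and -0.28. Gria2, the subunit that blocks calcium entry, stood at 314 CPM in mutant and 341 CPM in control members, against 590 and 913 CPM in other astroglia, and did not meet the rule. Per barcode it ran from 0 over 293 to 888 CPM in mutant members and from 0 over 130 to 1870 CPM in control members. Barcodes with a UMI of Gria2 made up 73.1% (mutant) and 63.6% (control) of members, against 2.58% and 6.44% of microglia. It was called lower against each of the 3 narrower groups of other astroglia. In the 24 control members with under 500 CPM of Gpc5, described at the end, its median was 63.5 CPM and its highest value 575 CPM. Gria3 had 0 UMIs in mutant and 2 in control members and was called lower, though not against other astroglia with at most 3% mitochondrial UMIs or with 6 astrocyte genes, as was Grip1, an anchoring protein of Gria2 and Gria3, at 0 and 47.2 CPM against 129 and 192 CPM. Gria1 was the subunit called higher beside the chosen Gria4, with summed ratios of 13.9 and 6.96.

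Auxiliary proteins of AMPA receptors were called higher with it. Cacng5, a transmembrane regulatory subunit known from Bergmann glia, stood at 235 and 258 CPM in members, against 3.62 and 9.73 CPM, ratios of 64.9 (36.7 to 121) and 26.5 (19.7 to 35.6). Cacng7 stood at 75.5 and 41.6 CPM, against 8.59 and 10.9 CPM, and Cacng4 at 117 and 99.9 CPM, against 46.4 and 40.3 CPM. Shisa9 stood at 457 and 485 CPM, against 116 and 175 CPM. Cacng4 lost the call in every narrower comparison, at a mutant ratio of 0.912 against low-mitochondrial other astroglia, and Shisa9 in that with low-mitochondrial other astroglia, in which fewer genes, 5826, could be measured. Cacng2, Cacng3 and Cnih3 had 0 UMIs in members. Outside this list Frrs1l, which takes part in assembling AMPA receptors, stood at 516 and 474 CPM, against 13.1 and 17.5 CPM.

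Of 15 other measured glutamate receptor genes, 2 were higher and 3 lower. Grin2b, an NMDA receptor subunit, was among the higher genes, at 604 and 427 CPM, against 87.3 and 116 CPM, while Grin1, the obligatory NMDA subunit, had 0 UMIs in members. Lower were Grik2, a kainate receptor subunit, at 4.19 and 63.8 CPM against 174 and 195 CPM, Grin2c at 0 and 41.6 CPM against 74.9 and 140 CPM, and Grm5, a metabotropic receptor, at 8.39 and 105 CPM against 103 and 239 CPM. The list's median log2 difference was -2.92 and -0.10, and 0.25 and 0.16 with genes at 0 set to the floor of 3 UMIs.

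**Figure D4:**
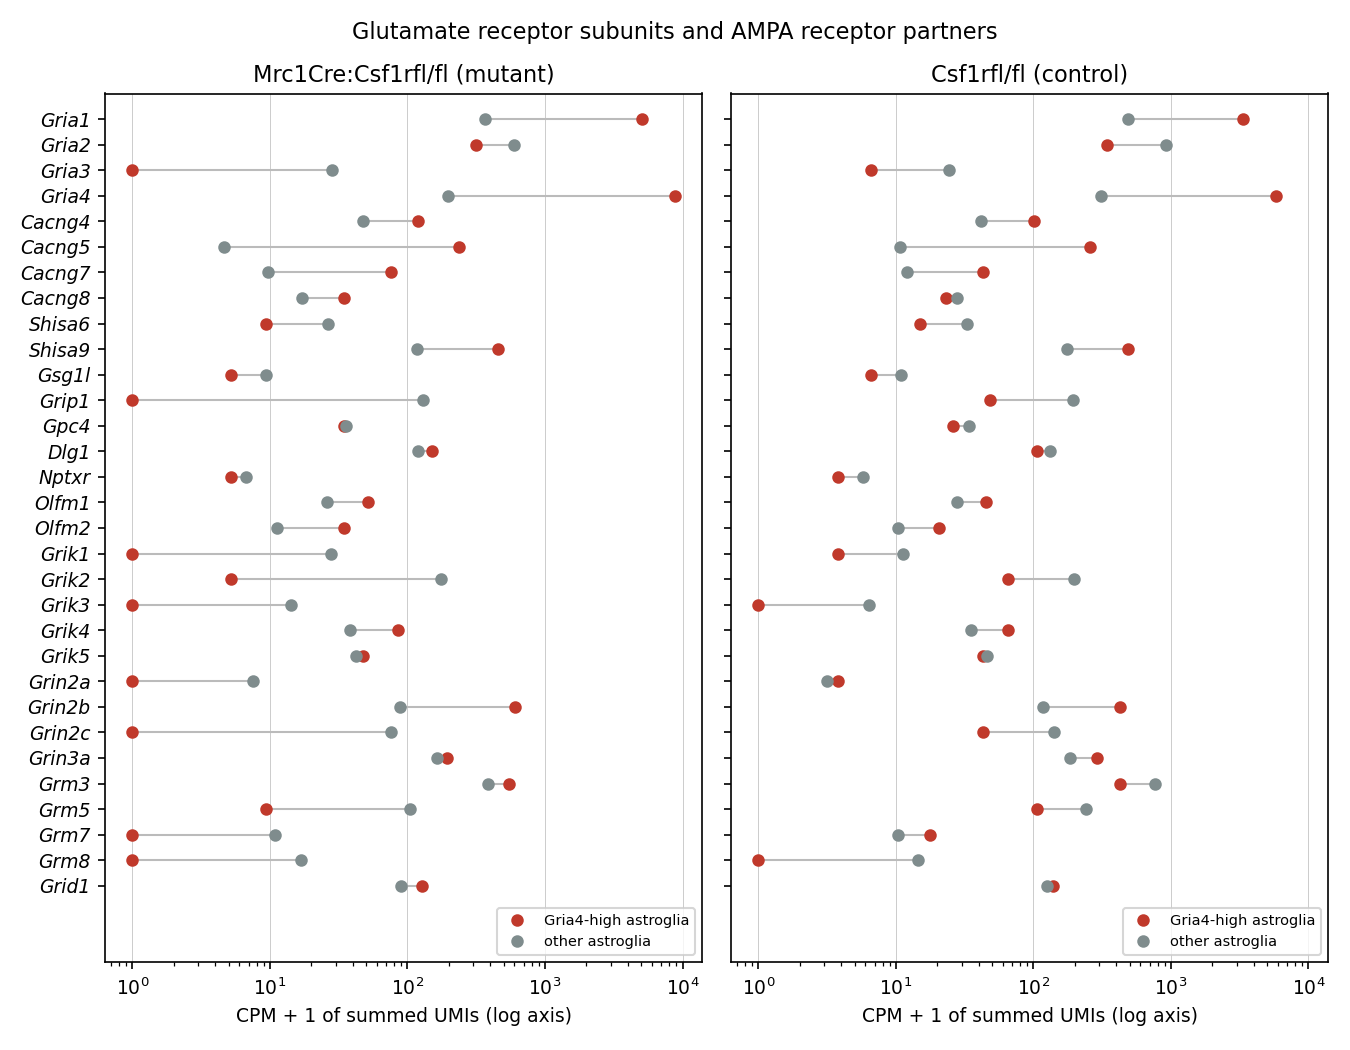
Summed CPM (x axis, log scale, 1 added) of glutamate receptor genes and partners in Gria4-high astroglia (red) and other astroglia (grey), with the mutant library on the left and the control library on the right. Gria4 and Gria1 stand furthest to the right in members, while Grik2, Grin2c and Grm5 lie left of other astroglia.

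GABA receptor genes were split between subunit types. Of 9 measured genes, the ionotropic subunits Gabra2 (595 and 505 CPM in members, 110 and 233 CPM in other astroglia) and Gabra4 (377 and 297 CPM, against 59.3 and 76.4 CPM) were called higher. The metabotropic subunits Gabbr1 (62.9 and 103 CPM, against 152 and 215 CPM) and Gabbr2 (21.0 and 47.2 CPM, against 138 and 203 CPM) were called lower. Gabrb1, the most counted of the list, at 3656 and 3145 CPM against 1337 and 2015 CPM, did not meet the rule. The list medians were -0.23 and -0.19, close to those of all genes. Gabra2 and Gabbr1 each lost the call in at least 1 narrower comparison.

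In transmitter uptake, Slc38a1, a glutamine transporter, was the only gene of 14 called higher, at 1266 and 960 CPM in members against 328 and 120 CPM. Slc6a11, the GABA transporter typical of non-telencephalic astrocytes, was called lower at 29.4 and 344 CPM against 646 and 1007 CPM, as was the cystine transporter Slc7a11 at 8.39 and 49.9 CPM against 283 and 250 CPM. In control members 96.0% of the Slc6a11 UMIs lay in 9 barcodes high in Gpc5, described at the end. The other control members stood at 23.1 CPM of Slc6a11. Glutamine synthetase, Glul, stood at 369 and 413 CPM, against 640 and 1032 CPM, and did not meet the rule, but it was called lower against other astroglia without markers of another type (0.349 and 0.319) and against those with 6 astrocyte genes (0.415 and 0.358).

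Potassium channel genes were more often lower, 8 of 18, than higher, 2 of 18. Higher were Kcnj3, at 826 and 538 CPM in members against 28.3 and 18.5 CPM, and Kcnip4, an accessory subunit of A-type channels, at 1300 and 680 CPM against 259 and 183 CPM. Kcnd2, a pore subunit of A-type channels, was called lower at 4.19 CPM in mutant and 768 CPM in control members, against 1418 and 2201 CPM in other astroglia. Kcnk1, a leak channel of astrocytes, was lower at 4.19 and 94.3 CPM against 186 and 323 CPM, and so were Kcnk2, Kcnk10, Kcnn3, Kcnq3, Kcnq5 and Kcnb2. Kcnk1, Kcnk10, Kcnq5 and Kcnb2 lost the call in at least 1 narrower comparison, with Kcnb2 above 1 in the control library.

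Matrix genes moved in both directions, 5 higher and 4 lower of 18. Ptprz1, a receptor phosphatase that binds tenascins, was found in every member, at medians of 4700 CPM in mutant and 4337 CPM in control members, against 1806 and 1999 CPM in other astroglia. Sparcl1 (hevin), which promotes excitatory synapses, stood at 6520 and 7115 CPM, against 2448 and 3083 CPM, and Vcan (versican) at 143 and 147 CPM, against 33.9 and 27.1 CPM. Other proteoglycans of perineuronal matrix were lower. Bcan (brevican) stood at 83.9 and 352 CPM, against 465 and 769 CPM, and Ncan (neurocan) at 4.19 and 30.5 CPM, against 98.8 and 140 CPM. Ptprz1, Sparcl1, Vcan and Bcan lost the call in at least 1 narrower comparison, with Vcan at a mutant ratio of 0.567 against low-mitochondrial other astroglia. Among 20 synapse-forming genes, 3 were higher and 5 lower. Gpc6, a glypican that recruits AMPA receptors, was higher at 3673 and 2851 CPM against 424 and 561 CPM.

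Of 11 measured Hedgehog pathway genes, 4 were called higher and 0 lower. Gli1, the transcription factor that is also a direct target of the pathway, stood at 96.4 and 55.5 CPM in members, against 12.9 and 18.4 CPM. The inhibitory binding protein and target Hhip (67.1 and 58.2 CPM, against 32.1 and 16.4 CPM) and the co-receptor Gas1 (273 and 277 CPM, against 75.5 and 93.0 CPM) were called as well. Ptch1, the main receptor and target, stood at 1270 and 921 CPM, against 335 and 556 CPM, and did not reach a 2-fold difference in the control library. Hhip lost the call against low-mitochondrial other astroglia. The list's medians were 0.88 and -0.27.

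Of 24 Notch pathway and glial transcription factor genes, 1 was higher and 3 lower. Id4, an inhibitor of basic helix-loop-helix factors, stood at 1065 and 1029 CPM, against 350 and 210 CPM. The Notch target Hes5 stood at 0 and 27.7 CPM, against 135 and 175 CPM, and Hey1 and Hey2 were also lower, except against low-mitochondrial other astroglia. Of 14 FGF pathway genes, 0 were called in either direction, with medians of 0.86 and 0.28. Etv4, a target of FGF signalling, stood at 268 and 227 CPM, against 52.9 and 122 CPM, within the rule in the mutant library only.

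Patterning genes of the cerebellum and hindbrain were mostly higher. Of 12 measured, 8 were called higher and 1 lower, with median log2 differences of 1.68 and 1.99. En2, the engrailed gene of the midbrain and cerebellum, stood at 29.4 and 33.3 CPM, against 3.17 and 4.97 CPM, but from only 7 and 12 UMIs in members. Zic1 (289 and 230 CPM, against 89.6 and 53.9 CPM), Zic4 (314 and 230 CPM, against 65.1 and 28.7 CPM) and Pax3 (428 and 427 CPM, against 47.0 and 62.2 CPM), factors of the dorsal neural tube and cerebellum, rested on more UMIs. Pax3 had a UMI in 25 of 26 mutant and 30 of 33 control members. It was also among the leading genes of the cluster of 54 barcodes, with 1 member, that Dao led. Zic2, Zic5, Irx1 and Irx5 completed the higher genes, and Meis2 was lower at 0 and 72.1 CPM against 212 and 296 CPM. Against other astroglia without markers of another type, 7 were higher and 1 lower, and against those with at most 3% mitochondrial UMIs 5 were higher and 1 lower of 7 measured.

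Forebrain and midbrain patterning genes gave the opposite count, 1 higher and 5 lower of 17. Lhx2, a LIM homeodomain factor of the forebrain, stood at 0 and 2.77 CPM in members, against 28.7 and 48.8 CPM. Otx2, Nr2f2 and Lef1 were also lower. Nkx2-2, a ventral neural tube factor, was the exception, higher at 92.2 and 99.9 CPM against 13.6 and 25.7 CPM. Each of the lower genes lost the call against low-mitochondrial other astroglia. These genes are low in all astroglia here, and 10 of the 17 had 0 UMIs in mutant members, which set the list's mutant median to -3.45, or 0.10 with genes at the floor. Against low-mitochondrial other astroglia the list's medians were 0.89 and 0.66. That group held 23 mutant barcodes, and 5826 genes could be measured against it, beside 12712 against all other astroglia. These medians thus need not cover the same genes as those above. A call can also be lost there through low counts, as Lhx2 lost it at ratios of 0 and 0.450.

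Receptors for transmitters and peptides were higher in 5 and lower in 4 of 19. Adra1b, an alpha-adrenergic receptor, stood at 67.1 and 77.7 CPM in members, against 9.05 and 24.6 CPM, and Ednrb, an endothelin receptor, at 998 and 1043 CPM, against 337 and 436 CPM. Adra1a, Gpr37l1 and P2ry1, a purine receptor, were also higher, and Adra2a, Chrm3, Itpr1 and P2ry12 were lower. Each of these 9 genes lost the call in at least 1 narrower comparison, and P2ry12, Adra2a and Chrm3 lay above 1 in at least 1 library there. Of 42 adhesion and guidance genes, 1 was higher and 9 lower. Cdh4, a cadherin, was the higher gene, at 654 and 516 CPM against 29.9 and 47.0 CPM, ratios of 21.9 and 11.0. Dcc, a netrin receptor, had 0 UMIs in members of both libraries, against 64.0 and 133 CPM in other astroglia, and Slit2, which lost the call against low-mitochondrial other astroglia, stood at 12.6 and 8.32 CPM, against 252 and 107 CPM. Among 22 ion and calcium handling genes, Trpc1, a cation channel, was higher at 172 and 128 CPM against 25.6 and 28.6 CPM, as was the chloride channel Clcn2, at 83.9 and 69.3 CPM against 22.4 and 26.0 CPM, while Atp1b1, Atp2b4 and Scn7a were lower, each except in at least 1 narrower comparison. Of 30 secreted and growth factor genes, 3 were higher and 7 lower, the lower ones including Cst3 (cystatin C) at 3430 and 3955 CPM against 9096 and 11795 CPM.

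Counts for lists of general metabolism and cell state follow, beside 2.68% of all measured genes called higher and 5.51% called lower. Cholesterol and fatty acid genes gave 1 higher (Fabp7) and 0 lower of 27, and glycolysis genes 0 higher and 2 lower of 21. Of 16 reactive astrocyte genes 0 were higher and 1 lower, whereas Vim was called higher in the narrower comparisons named above, and Gfap, the intermediate filament of reactive astrocytes, stood at 37.7 and 25.0 CPM in members, against 33.2 and 18.1 CPM. Immediate early genes gave 1 higher (Ier3) and 1 lower (Ccn1) of 22, and cell cycle genes 0 of 5 in either direction. Long neuronal-like transcripts were split, 4 higher and 4 lower of 15.

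The lower genes named by rank were largely genes of motile cilia. Tmem212, Ak7, Meig1, Ccdc153, Stoml3, Dnah6 and Enkur belong to motile cilia. Tmem212 had 0 UMIs in mutant members against 834 CPM in other astroglia, a ratio with an interval up to 0.0186. With members set to the floor of 3 UMIs it was 66.3-fold lower. In the control library Tmem212 stood at 2.77 CPM, against 180 CPM. Tmem212, Ak7, Meig1, Ccdc153 and Dnah6 were among the leading genes of a cluster of 112 other astroglial barcodes, 74 mutant and 38 control, that held no member. Ptgds, a prostaglandin D synthase, stood at 62.9 and 119 CPM, against 2409 and 1408 CPM, and Apod, an apolipoprotein, at 37.7 and 19.4 CPM, against 833 and 324 CPM. Cd24a and the myelin gene Mal were lower as well. When other astroglia with markers of another type were left out, Ptgds and Apod kept the call in both libraries. Each of the 7 motile cilia genes, Cd24a and Mal lost it in at least 1 library. Control ratios of 2.56 for Tmem212 and 7.69 for Ccdc153 lay on the other side of 1. That comparison group still held the olfactory ensheathing glia markers Npy and Frzb. In the mutant library they stood there at 892 and 98.4 CPM, against 408 and 41.4 CPM in all other astroglia. In the control library they stood at 204 and 19.1 CPM, against 140 and 14.1 CPM. Members held Npy too, at 247 CPM in the mutant and 200 CPM in the control library, and had 0 UMIs of Frzb. Both genes and Apod led a cluster of 23 other astroglial barcodes, 13 mutant and 10 control, that held no member. Whether these barcodes carried the Apod call was not tested. Against low-mitochondrial other astroglia Ptgds and Apod were higher in control members, at ratios of 2.15 and 1.58, and remained lower in the mutant library, at 0.171 and 0.0207. Lower genes numbered 409 against other astroglia without markers of another type and 311 against those with at most 3% mitochondrial UMIs. Against all other astroglia they numbered 700. Of the lists for other cell types, ependymal markers were lower in 7 of 7, oligodendrocyte markers in 4 of 8 with Cnp higher, and endothelial markers in 0 of 6 in either direction, where all 6 had 0 UMIs in mutant and 5 had 0 in control members. Against other astroglia without markers of another type, 0 of 2 measured ependymal and 1 of 5 oligodendrocyte markers were lower. At low mitochondrial share these were 0 of 1 and 0 of 3, and with 6 astrocyte genes 6 of 7 and 7 of 8.

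Within astroglia, the Gria4-high share was 6.62% in the mutant library (26 of 393, exact 95% interval 4.37 to 9.54) and 3.97% in the control library (33 of 831, 2.75 to 5.53), and these intervals overlap. With barcodes kept only up to 5% mitochondrial UMIs the shares were 21.2% and 10.8%, outside those intervals. Of all kept barcodes the share was 0.413% (0.270 to 0.605) in the mutant and 0.575% (0.396 to 0.806) in the control, with astroglia at 6.24% and 14.5% of kept barcodes. The order of the libraries thus depended on the denominator, and how the sort set either share was not tested.

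Between the members of the libraries, 175 of 2357 genes with at least 50 UMIs were at least 1.5-fold higher in the mutant (7.42%) and 129 were lower (5.47%), each with an interval that excluded 1, around an all-gene median log2 difference of 0.07. With library sizes scaled by a trimmed mean of M values, 107 were higher and 174 lower, so the balance of directions between the libraries turned with the scaling. Of the 12 Bergmann glia markers 1, Gria1, was higher in mutant members and 0 were lower, and of 12 cerebellar and hindbrain genes 6 could be measured, with 0 called in either direction.

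The highest ratios came from a single barcode. F13a1, a transglutaminase subunit of macrophages, had 53 UMIs in mutant and 0 in control members. That was 26.7-fold above the floor of 3 UMIs, and the interval of the ratio began at 21.0. All 53 UMIs were in 1 barcode of 25737 UMIs. The same barcode held 98.1% of the 54 UMIs of Mrc1, the mannose receptor, 93.9% of those of Mctp1, 96.4% of the 110 UMIs of Lyz2 (lysozyme) and 91.1% of the 79 UMIs of Rbpj. It was the mutant member that clustered with macrophage genes. Of 7 measured microglia markers 7 were higher in mutant members. Per barcode, the summed microglia list had close medians, 928 CPM in mutant and 858 CPM in control members. Its highest values were 13864 and 3187 CPM. Without members that carried markers of another type Lyz2 and Rbpj lay below control at ratios of 0.486 and 0.795. The other named higher genes were spread over members. Slc8a1, the sodium-calcium exchanger, stood at 302 CPM in mutant and 83.2 CPM in control members, a ratio of 3.63 (2.34 to 5.76), and Syndig1, an AMPA receptor associated protein, at 327 and 136 CPM, a ratio of 2.41 (1.66 to 3.51). Rbfox1 stood at 3187 CPM in mutant and 1698 CPM in control members, a ratio of 1.88 (1.69 to 2.09), with UMIs in 26 of 26 and 30 of 33 members. Snx24 and St6gal1 differed 3.89-fold and 3.11-fold.

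The lowest ratios came from a minority of control members. Kcnd2 stood at 4.19 CPM in mutant and 768 CPM in control members, Gpc5 at 79.7 and 2627 CPM, Lrp1b at 8.39 and 632 CPM and Lrrc4c at 12.6 and 691 CPM. Rgs6 and Il1rapl1 had 0 UMIs in mutant members, at least 19.0-fold lower each, and Rgs7 was at least 15.7-fold lower. Gpc5 reached 500 CPM in 1 of 26 mutant and 9 of 33 control members, beside 241 of 367 and 704 of 798 other astroglia. The 9 control members held 39.9% of all control member UMIs but 97.1% of those of Kcnd2, 99.1% of Lrp1b, 98.8% of Lrrc4c, 97.7% of Rgs6 and 100% of Rgs7. Of genes called lower against other astroglia, they held 96.0% of the control member UMIs of Slc6a11, 97.1% of Kcnk1, 94.7% of Grm5 and 88.2% of Bcan. They were all among the 11 control members with the lowest Gria4, at 3008 over 3534 to 3981 CPM, and had marker sums from 694 over 6698 to 17922 CPM. Their median mitochondrial share was 6.24%, against 1.79% in the 24 control members low in Gpc5.

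**Figure D5:**
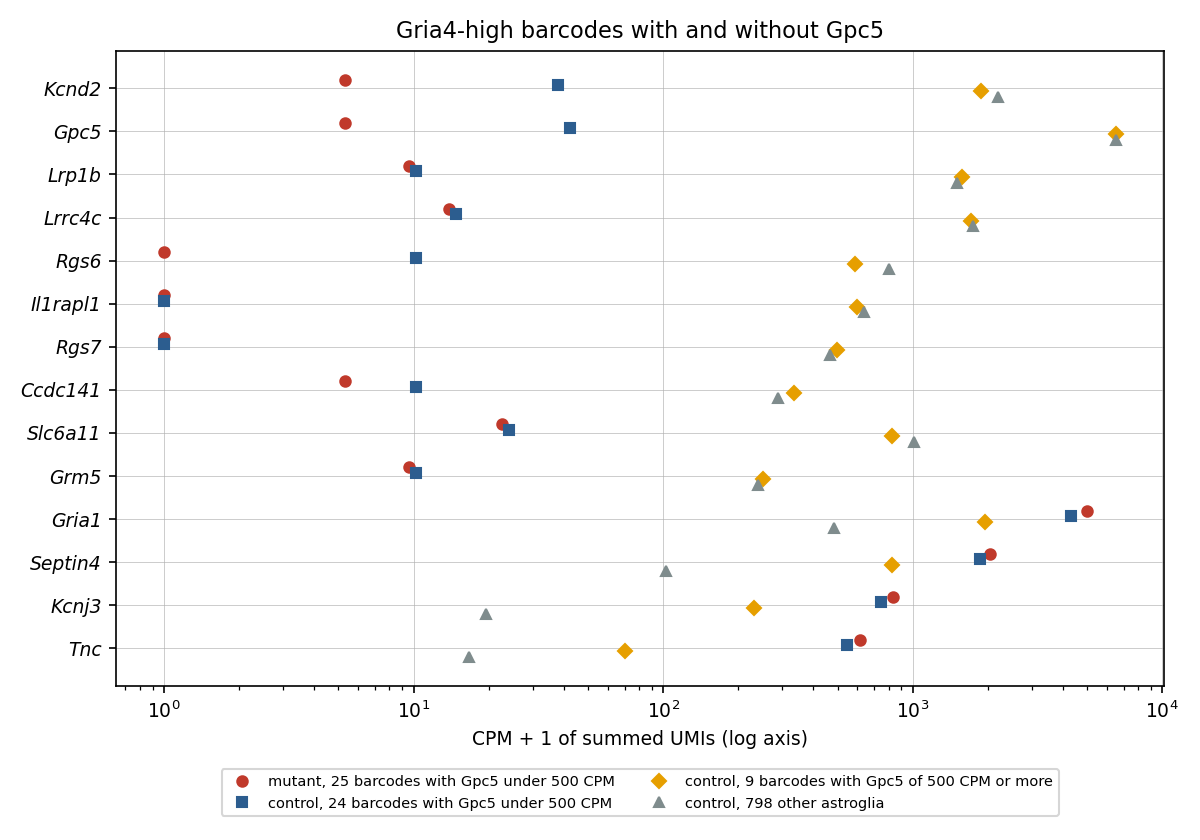
Summed CPM of the genes named on the y axis in 25 mutant members low in Gpc5, 24 control members low in Gpc5, 9 control members at 500 CPM or more of Gpc5, and 798 other control astroglia. Control members high in Gpc5 lie between the low-Gpc5 members and other astroglia for most genes, and the low-Gpc5 members of both libraries lie close together at Gria1, Septin4, Kcnj3 and Tnc.

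With members at 500 CPM or more of Gpc5 left out, 25 mutant and 24 control members remained. Gpc5 made this split, so its own ratio there is no result. The ratio of mutant to control was 1.16 for Gria1, 1.10 for Septin4, 1.12 for Kcnj3, 1.12 for Tnc, 1.09 for Hopx, 1.04 for Slc1a3 and 0.814 for Timp4, each of these within 1.5-fold, and Slc1a2 stood at 0.800. Kcnd2 was still called lower, from 1 UMI in mutant members, at a ratio of 0.117 (0.00263 to 0.870). Gdf10 was lower in the mutant, at 814 against 1287 CPM and a ratio of 0.632 (0.523 to 0.763), and Agt, the angiotensinogen gene, was lower with a ratio of 0.404. Syndig1 remained higher at a ratio of 1.69, and Rbfox1, at 1.33, did not reach 1.5-fold. In this setting 109 genes were higher and 63 lower. Prl, a pituitary hormone gene, was among the lower genes, with 0 UMIs in mutant and 164 CPM in control members. It had 0 UMIs in mutant other astroglia too and stood at 147 CPM in control other astroglia, with a UMI in 23 of 33 control members and 505 of 798 control other astroglia. The difference in Prl was thus one between the libraries, and control members did not differ from control other astroglia beyond counting error (ratio 1.11, 0.842 to 1.44).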

How the data were processed

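The deposited values are UMI counts for each gene in each barcode, whole numbers without scaling that Cell Ranger 7.1.0 wrote, per the file headers, with builds GRCm38.p6 and mm10 named in the submitters' processing notes. How reads were aligned, whether introns were counted and whether free RNA was subtracted is not given in the sources used here. Cell types were not taken from any deposited annotation. The libraries held 82806348 (mutant) and 85716531 (control) UMIs over 26033 genes.

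Members, comparison groups and gene lists were chosen with earlier results of these data known. UMIs were summed per library and group and divided by the group total to give CPM. Ratios carry exact conditional 95% Poisson intervals and shares exact Clopper-Pearson intervals. Both cover counting error only, since cells are not replicates, and no p-value was computed. Genes with at least 50 UMIs were measured; rule genes and mitochondrial genes were not counted, nor were sex-linked genes between genotypes. List medians are log2 ratios of CPM plus 1, for 44 lists. Of their genes, 6 were not found and are not analysed here.

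Named genes were the 20 highest and 12 lowest by the interval bound nearer to 1 among called genes at 20 CPM or more, the 10 highest and 10 lowest between genotypes, the rule and marker genes, and up to 6 of each list that differed most, with list genes at 0. Some genes that these rules name are not reported here. Septin4 was listed as Sept4. Scrublet, run through scanpy 1.11.5 with an expected doublet rate of 0.008 (a fraction of barcodes) for every 1000 barcodes, scored doublets. Its automatic threshold marked 1.49% of mutant and 0.0522% of control barcodes, so a score of 0.2 was used, which marked 2.42% and 2.12%, and doublets were removed only in an alternative. Clusters came from Leiden clustering at resolution 1 with 15 neighbours, 20 components and 2000 variable genes. Gene coordinates are those of a GENCODE annotation of GRCm38. The count rules were tested on simulated data. Python 3.11.15, NumPy 2.4.6, SciPy 1.17.1, pandas 2.3.3 and leidenalg 0.10.2 were used. Alternatives changed the Gria4, Slc1a3, mitochondrial and marker limits, the scaling, the gene minimum, the depth (thinning to 2000 UMIs) and the groups compared.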

Additional observations from a re-analysis of the deposited data

How the results depend on the processing

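With 1 library per genotype, nothing here measures the spread between animals, and genes near 50 UMIs have wide intervals. No paired analysis was possible because there is 1 library per genotype. Alternatives that leave out barcodes with markers of another type, members high in Gpc5 or other astroglia above 3% mitochondrial UMIs were chosen after seeing the data. Of 82 values of shares and counts under alternatives, 59 stayed within their interval or within 1.5 times the reported count.

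The control share of members among astroglia was 5.90% with Gria4 at 2000 CPM, 2.17% at 5000 CPM and 2.21% with mitochondrial UMIs up to 20%. With mitochondrial UMIs up to 5% the shares were 21.2% in the mutant and 10.8% in the control library. The mutant share was 9.96% with 6 of 8 astrocyte genes and 9.76% without barcodes holding markers of another type.

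Genes lower in members numbered 446 with 6 of 8 astrocyte genes, 138 after thinning to 2000 UMIs, 409 against other astroglia without markers of another type and 311 against those with at most 3% mitochondrial UMIs. Genes higher numbered 176 after thinning, of which 150 were among the 341. Of the lists, 15 in the mutant and 13 in the control library had medians above that of all genes. In the control this was 8 with 6 of 8 astrocyte genes and 30 against low-mitochondrial other astroglia. Of the list medians in both libraries, 43 of 88 moved and 18 changed sign against other astroglia without markers of another type, and 51 of 80 moved and 35 changed sign against low-mitochondrial ones, where the AMPA receptor list turned to -0.10 in the mutant and 0.33 in the control library. The median of all genes was -0.06 in both libraries without markers of another type and -0.06 and -0.13 at low mitochondrial share.

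Between genotypes, 66 genes were higher and 49 lower with Gria4 at 5000 CPM, and 107 higher with scaling by a trimmed mean of M values. A minimum of 20 UMIs gave 303 higher and 240 lower, and one of 200 UMIs gave 20 and 24. Without members high in Gpc5 the counts were 109 and 63.

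Among the genes named by rank, ratios turned to the other side of 1 for Tmem212 (2.56) and Ccdc153 (7.69) in the control library against other astroglia without markers of another type, and for Ptgds (2.15) and Apod (1.58) against low-mitochondrial other astroglia. Among genes named from the lists, Fabp7 turned to 0.963 and 0.680 in the mutant library in these comparisons and Lgr6 to 0.815 in the second. Tdo2 had a ratio of 0 in the mutant after thinning. Between genotypes, Il1rapl1 had a ratio of 1.41 with Gria4 at 2000 CPM, Gpc5 2.67 and Lrrc4c 2.95 at 5000 CPM, and Lyz2 0.486 and Rbpj 0.795 without members holding markers of another type. The causes were not tested.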

Other observations

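Barcodes that met the rest of the rule but held more than 10% mitochondrial UMIs numbered 4 in the mutant and 5 in the control library. Their summed Bergmann glia markers ran from 1992 to 12977 CPM in the mutant and from 590 to 10352 CPM in the control library, with mitochondrial shares up to 19.5% in both.

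The 5 control barcodes below the Gria4 limit that clustered with the members had Gria4 from 1792 over 2494 to 2934 CPM. Their summed Bergmann glia markers ran from 9449 over 19415 to 20711 CPM, within the range of the control members.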
